A study of Mus musculus with 12 samples.

Results

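The MHC class I pathway is described here through 9 genes: the classical MHC class I heavy chains H2-K1 and H2-D1, their light chain B2m, the peptide transporter genes Tap1 and Tap2, the loading factor Tapbp, and the immunoproteasome subunits Psmb8, Psmb9 and Psmb10. They were picked by symbol and make up 9 of the 19012 gene symbols in the tables. Tapbp had 2 transcript rows and every other gene 1, and the longer of the 2 was used. Poly(A) RNA from the small intestine of mice was sequenced in 12 libraries that cross 3 tissues with 3 origins, the duodenum, the jejunum and the ileum. The tissues were freshly isolated crypts, with 2 libraries per origin, freshly isolated villi, with 1 library per origin, and organoids that had been cultured for 12 weeks, with 1 library per origin. The labels name no treatment, genotype, strain, age or number of animals, and do not say that equal tissues came from separate animals, so p-values measure only the spread between these samples. Organoids were grown from isolated crypts, per the labels. Each tissue was prepared in its own way, and effects of preparation and of tissue cannot be told apart. The series asks whether adult stem cells of the small intestine are programmed for their location, and the same libraries allow the class I pathway to be followed from crypt to villus and into culture.

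A class I molecule is a heavy chain bound to beta-2-microglobulin, the product of B2m, and to a short peptide that it shows to CD8+ T cells. Most peptides come from proteins cut by the proteasome. They are pumped into the endoplasmic reticulum by the Tap1-Tap2 transporter and are loaded with the help of tapasin, the product of Tapbp. In cells exposed to interferon the catalytic subunits Psmb5, Psmb6 and Psmb7 of the standard proteasome are replaced by Psmb8, Psmb9 and Psmb10, which gives the immunoproteasome. Interferon gamma raises the whole set, with IRF1 and the class I transactivator NLRC5 among the factors that act on these genes. In the intestine the villus epithelium holds many intraepithelial T cells, and cultured epithelium is kept without them.

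The implied depth lay between 5268480 and 18591819 reads per library, of which 44.3% to 75.8% fell in annotated genes. Crypt replicate 1 had lower shares, 44.3% to 52.3%, than crypt replicate 2, 60.1% to 67.6%. Of the defining markers, Lgr5, a stem cell gene, was at 1.77 to 17.2 RPKM (read density over the exons, corrected for library size) in crypts, 20.1 to 26.0 in organoids and 0.0973 to 0.193 in villi. Fabp1, an enterocyte gene, ran the other way between villi (137 to 2900 RPKM) and crypts (1.59 to 1467), with overlap. In organoids Fabp1 was at 266 to 1263 RPKM, which overlaps both. At each origin crypt replicate 2 held 12.2 to 19.4 times the Fabp1 level of crypt replicate 1, so the crypt libraries differ in enterocyte RNA by their number. T cell markers were present in villi and near 0 elsewhere, and their values are given beside the results they move with.

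In mm9, the build of the deposited tables, all members but 2 lie in the MHC on chromosome 17: Tapbp at chr17:34056422-34066234, H2-K1 at chr17:34132956-34137277 on the minus strand, Psmb9 at chr17:34319043-34324274 on the minus strand, Tap1 at chr17:34324824-34333743, Psmb8 at chr17:34335139-34338398, Tap2 at chr17:34341510-34353265 and H2-D1 at chr17:35400038-35404441. B2m lies at chr2:121973422-121978817 and Psmb10 at chr8:108459663-108462004 on the minus strand. Each interval is the whole transcribed locus, introns included, and the values count exon reads. The member with the fewest reads in a library was Tap2, with 6 reads in the duodenal organoids, and the one with the most was H2-K1, with 39441 in the duodenal villi. Per length, B2m had the highest mean in crypts at 718 RPKM, followed by H2-K1 at 319, Psmb10 at 213, H2-D1 at 122, Tapbp at 81.5, Psmb9 at 38.5, Psmb8 at 23.1, Tap1 at 3.28 and Tap2 at 2.38. The transporter genes were thus the scarcest members and the light chain the most abundant. In every member the tissue means ran from villi down, with crypts in the middle and organoids lowest, except B2m, whose organoid mean of 1313 RPKM lay between those of villi and crypts.

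**Figure D1:**
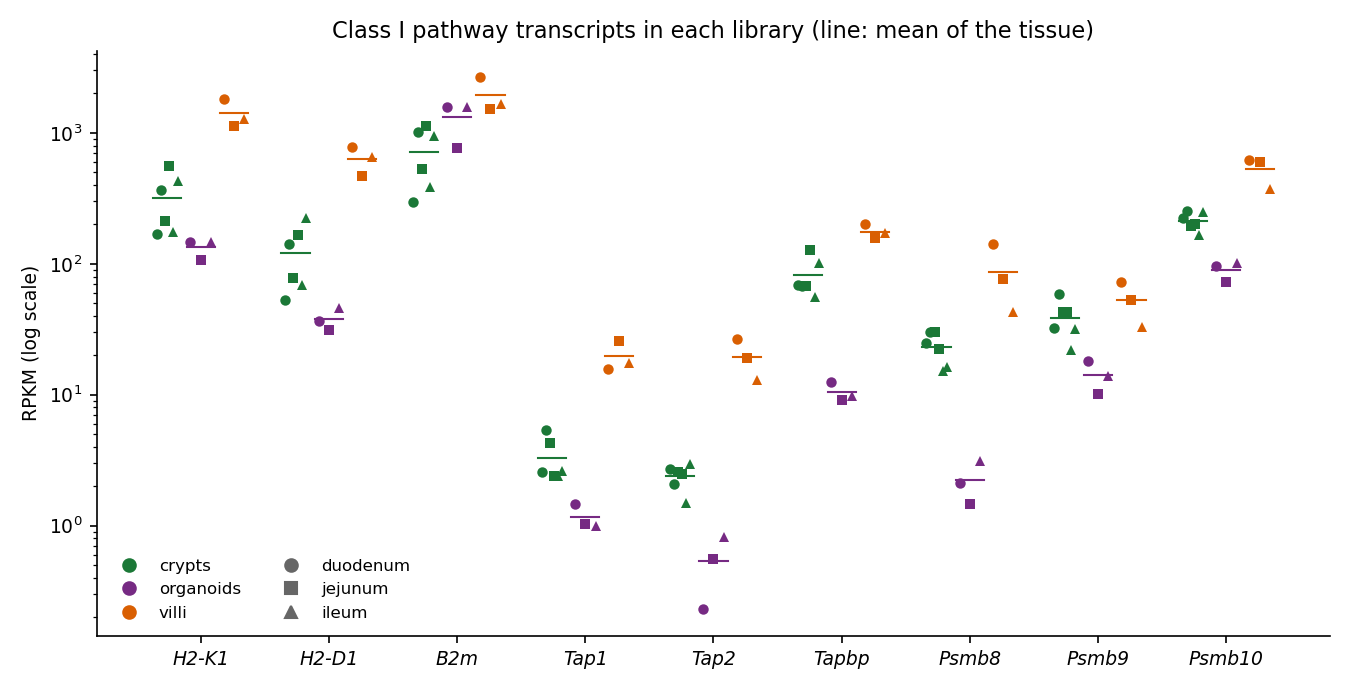
RPKM on a log axis for each of the 9 genes, 1 point per library, coloured by tissue and shaped by origin, with a line at the mean of each tissue. Villi lie above crypts without overlap in 8 genes, Psmb9 excepted, and organoids lie below crypts without overlap in 8 genes, B2m excepted. The share of all genes that separate in this way was not computed.

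The promoters of H2-K1 and H2-D1 are shown because these genes encode the classical heavy chains and their stretches can be compared base by base. In the RefSeq table (GRCm38.p6), which had windows of 300 bases for 8 of the 9 members, from 250 bases before the start to 50 after it, both hold the same order of motif matches. The stretches run from 10 bases ahead of an NF-kB motif to a reversed CCAAT box, at chr17:34000359-34000467 on the minus strand for H2-K1 and chr17:35262914-35263022 on the plus strand for H2-D1. Capitals mark, in order, GGGATTCCC (NF-kB), the reverse of GAANNGAAA (core of the interferon-stimulated response element), TGACGC (CREB half-site) and the reverse of CCAAT.
H2-K1: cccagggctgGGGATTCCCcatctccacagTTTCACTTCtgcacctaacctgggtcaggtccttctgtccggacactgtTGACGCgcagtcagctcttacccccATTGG
H2-D1: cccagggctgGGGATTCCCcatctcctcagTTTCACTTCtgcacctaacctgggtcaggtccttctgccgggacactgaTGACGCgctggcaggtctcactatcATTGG
The stretches are 109 bases each and match at 98 positions without gaps, 89.9%. Measured from the more downstream of the 2 RefSeq starts of H2-K1, its interferon element core begins 104 bases upstream, and that of H2-D1 begins 150 bases upstream. Searched on both strands of 32851 promoter windows of the same length, GAANNGAAA was found in 7.52%, GGGATTCCC in 0.353%, TGACGC in 7.4% and CCAAT in 37.4%. Of the 8 members with a window, 2, 2, 2 and 6 held these motifs. Matches in the printed stretches do not overlap each other, and a match is a run of letters, not a measured binding site.

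H2-K1 was measured at 1830, 1135 and 1283 RPKM in duodenal, jejunal and ileal villi. In the 6 crypt libraries it had a lowest value of 168, a median of 291 and a highest value of 560 RPKM. Organoids had 146, 107 and 148 RPKM. All villus libraries stood above all crypt libraries and all organoid libraries below them. The villus mean was 4.44 times the crypt mean, and the crypt mean 2.39 times the organoid mean. On the log2(RPKM + 1) scale, on which all fold changes below were fitted and which understates the change of low genes, H2-K1 rose by 2.27 ± 0.44 (SE) in villi (adjusted p = 0.000935). The organoid change of -1.11 ± 0.44 missed the threshold (adjusted p = 0.0531) and passed it once the crypt replicate number was a term of the fit (replicate block, adjusted p = 0.00254). With only crypt replicate 1 as reference it was -0.48 (adjusted p = 0.209) and with only replicate 2 it was -1.75 (adjusted p = 0.000943).

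H2-D1, the second classical heavy chain, had 783, 472 and 654 RPKM in duodenal, jejunal and ileal villi. Its crypt values had a lowest of 53.2, a median of 110 and a highest of 222 RPKM, and organoids had 36.4, 31.2 and 45.7. No library of one tissue overlapped another tissue. It rose in villi by 2.53 ± 0.43 (adjusted p = 0.000371), and fell in organoids by 1.49 on the log2 scale (adjusted p = 0.0123). The organoid call was lost without the jejunal organoids (adjusted p = 0.0644) or the ileal organoids (adjusted p = 0.0518). Its size was -0.80 against crypt replicate 1 alone (adjusted p = 0.0283) and -2.19 against replicate 2 alone. Of the 50-base windows of the H2-K1 transcript 8.79% recur in another gene of the GENCODE M21 annotation, most of them in H2-D1, and of those of H2-D1 14.3%, most of them in H2-Q1, so reads from those stretches cannot be assigned with certainty.

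B2m, the light chain, was higher in villi than in crypts, like the heavy chains, and was not lower in organoids. It stood at 2657, 1520 and 1661 RPKM in villi, and its crypt libraries had a lowest of 296, a median of 738 and a highest of 1128. The organoids had 1590, 765 and 1584 RPKM, which overlaps both tissues. B2m rose in villi by 1.57 ± 0.54 (adjusted p = 0.0252). That call was lost with no filter on low values (adjusted p = 0.056), when any 1 villus library was left out (adjusted p = 0.0573 to 0.116), without jejunal crypt replicate 1 (adjusted p = 0.052), and with only crypt replicate 2 as reference, where the change was 0.87 (adjusted p = 0.0907). The organoid value was 0.97 ± 0.54 above crypts (adjusted p = 0.152). It passed as higher in organoids with the replicate block (adjusted p = 0.0286) and with only crypt replicate 1 as reference (1.66, adjusted p = 0.00771). The B2m promoter is printed for contrast with those of the heavy chains: of these motifs only a reversed CCAAT box, in capitals, was found in its window, and the stretch is at chr2:122147604-122147668 on the plus strand (GRCm38.p6).
B2m: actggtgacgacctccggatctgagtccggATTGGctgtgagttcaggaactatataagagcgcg
None of the 50-base windows of B2m recurs in another gene.

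Tap1 and Tap2 encode the paired chains of the peptide transporter. Tap1 had 15.9, 25.6 and 17.3 RPKM in duodenal, jejunal and ileal villi, a lowest of 2.39, a median of 2.60 and a highest of 5.40 in crypts, and 1.47, 1.03 and 0.989 in organoids. Tap2 had 26.5, 19.2 and 13.1 RPKM in villi, a lowest of 1.49, a median of 2.53 and a highest of 2.96 in crypts, and 0.231, 0.560 and 0.815 in organoids. The tissues did not overlap in either gene. Both rose in villi, Tap1 by 2.29 ± 0.26 (adjusted p = 1.90e-05) and Tap2 by 2.57 ± 0.25 (adjusted p = 7.95e-06), the latter 8.24 times the crypt mean. In organoids Tap1 fell by 0.94 (adjusted p = 0.00953) and Tap2 fell by 1.14 (adjusted p = 0.00283), on the log2 scale. Leaving out the jejunal organoids ended the Tap1 call (adjusted p = 0.0584). As both genes are scarce, the size of these changes depended on the pseudocount: for Tap2 in organoids it was -2.05 with 0.1 and -0.41 with 5, and for Tap1 -1.37 and -0.41. Relative to the crypt mean of the same origin, Tap2 in organoids was at 0.0969 in the duodenum, 0.222 in the jejunum and 0.367 in the ileum.

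Tapbp encodes tapasin, which holds empty class I molecules at the transporter. Its villus values were 200.7, 156 and 171 RPKM. Crypts had a lowest of 55.5, a median of 68.6 and a highest of 128 RPKM, and organoids had 12.6, 9.11 and 9.76. By tissue means Tapbp thus changed less than the transporter from crypt to villus and more from crypt to organoid, although these differences between genes were not tested. It rose by 1.15 ± 0.30 in villi (adjusted p = 0.0056) and fell by 2.80 in organoids (SE 0.30, adjusted p = 2.31e-05). The crypt mean was 7.78 times the organoid mean, and by origin it was 5.46 times in the duodenum, 10.7 in the jejunum and 8.02 in the ileum. Of the 50-base windows of Tapbp 21.0% recur in another gene, mostly in Gm19412, the largest share among the 9 members. For Tap2 the share was 12.6%, mostly in Gm15821.

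Tap1 and Psmb9 are read from opposite strands, and their RefSeq starts are 225 bases apart. The stretch between the starts, chr17:34187331-34187555 (GRCm38.p6, strand of Tap1), is shown because both genes start at its ends. Capitals mark a CCAAT box, next to the start of Psmb9.
Tap1 and Psmb9: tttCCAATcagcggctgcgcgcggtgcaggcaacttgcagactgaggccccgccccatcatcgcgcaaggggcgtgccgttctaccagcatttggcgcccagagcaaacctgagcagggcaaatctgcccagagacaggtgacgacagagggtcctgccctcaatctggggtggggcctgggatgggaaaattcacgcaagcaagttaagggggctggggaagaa
Of the windows of 50 bases in the Psmb9 transcript of GENCODE M21, 163 recur in Tap1 in either orientation, which is 12.5%. That transcript has 1352 bases, against 806 in the deposited exons of Psmb9, and the deposited loci of the 2 genes do not overlap. How reads from the shared windows were assigned was not analysed here.

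Psmb8, which replaces Psmb5, was measured at 141, 77.0 and 42.5 RPKM in duodenal, jejunal and ileal villi. Crypts had a lowest of 15.1, a median of 23.7 and a highest of 30.1 RPKM, and organoids had 2.11, 1.45 and 3.15. The tissues did not overlap. Psmb8 rose by 1.75 ± 0.31 in villi (adjusted p = 0.000529) and fell by 2.89 in organoids (SE 0.31, adjusted p = 2.65e-05). The crypt mean was 10.3 times the organoid mean, the largest such ratio among the 9 members. By origin it was 13.0 in the duodenum, 18.0 in the jejunum and 4.99 in the ileum.

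Psmb9, which replaces Psmb6, had 73.1, 52.5 and 33.1 RPKM in villi. Its crypt values had a lowest of 21.9, a median of 37.7 and a highest of 58.8, so villi and crypts overlapped. In organoids it had 18.2, 10.14 and 13.9 RPKM, below every crypt library. The villus change of 0.44 ± 0.28 did not pass the test (adjusted p = 0.203), and passed after scaling by trimmed mean of M-values, TMM (0.73, adjusted p = 0.0266). Psmb9 fell in organoids by 1.36 (SE 0.28, adjusted p = 0.00175). Psmb10, which replaces Psmb7, was the most abundant of the inducible subunits, with 624, 594 and 372 RPKM in villi. Crypts had a lowest of 165, a median of 212 and a highest of 251 RPKM, and organoids 95.5, 72.5 and 101. The tissues did not overlap, and Psmb10 rose by 1.29 ± 0.29 in villi (adjusted p = 0.00269) and fell by 1.24 in organoids (adjusted p = 0.00407).

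In villi, 8 of the 9 members were higher than in crypts at an adjusted p below 0.05 and none was lower, where 20.5% of the 11690 genes tested were called higher and 32.8% lower. The median change over the members was 1.75, against -0.20 over all genes tested. Of all called genes 38.5% were higher in villi as deposited and 51.0% after TMM scaling, which moved the median of all genes to -0.03, and under TMM all 9 members were called higher. Leaving out 1 library at a time left 7 or 8 members called. With only crypt replicate 1 as reference 8 were called, and with only replicate 2, the crypts richer in enterocyte RNA, 7. The shares of all genes called in these refits with fewer libraries are not given here. These are bulk samples, in which more cells of a type and more RNA per cell cannot be told apart. Lymphocyte markers moved the same way: all 10 genes of a T and intraepithelial lymphocyte list were above 0 in villi, and their summed level was 66.8 to 290 RPKM there, 1.06 to 4.76 in crypts and 0.134 to 0.366 in organoids. Cd3e had 17.5, 11.4 and 6.09 RPKM in villi and at most 0.239 in crypts, and Ptprc, the pan-leukocyte gene, had 0.813 to 1.09 RPKM in villi and at most 0.12 elsewhere. Of 9 enterocyte markers 8 rose too, with a summed level of 49640 to 99260 RPKM in villi against 708 to 23740 in crypts. All 5 tested genes of a list for stroma, muscle and endothelium rose as well, among them Acta2, a smooth muscle actin (3.79, adjusted p = 1.13e-06), and the summed level of that list was 15.5 to 44.0 RPKM in villi and 0.147 to 2.42 in crypts. Igj, the joining chain of plasma cells, rose by 2.63 (adjusted p = 0.000125), the only gene called of 2 tested B and plasma cell markers. Myeloid markers were split: of 5 tested, 2 were higher in villi and 2 lower. Csf1r was at 1.086 and Itgax at 0.7657, while Cd68 was at -2.184 and Lyzs at -1.941. The summed level of the myeloid list was 5.289 to 14.98 RPKM in villi and 13.68 to 80.18 in crypts. The part of any of these cell types in the rise of the members was not tested.

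In organoids, 7 of the 9 members were lower than in crypts, and none was higher, where 24.2% of the genes tested were called lower and 23.4% higher. The median change was -1.24 over the members and 0.0045 over all genes tested. The other two, H2-K1 and B2m, passed with the replicate block, the first as lower and the second as higher. The block takes out the spread between the crypt replicates and leaves the changes as they are, since organoids and villi have no replicate number to pair. The SE of H2-K1 was 0.44 without it and 0.26 with it. Spread of that kind between organoid or villus libraries is not allowed for, so p-values with the block may be too small. Without the jejunal organoids 5 members were called and without the ileal organoids 6, with no share of all genes given for these refits. Of the lymphocyte markers, at most 4.76 RPKM in sum in crypts, none was called between organoids and crypts. Of 5 tested myeloid markers 3 were lower in organoids and none higher: Cd68 fell by 1.45 (adjusted p = 0.00194), Lyzs fell by 1.21 (adjusted p = 0.0341) and Itgam fell by 0.56 (adjusted p = 0.0134). The myeloid list summed to 13.7 to 80.2 RPKM in crypts and 9.49 to 20.4 in organoids. Emr1 and Itgax of that list were at 0 in every organoid library, and which cells gave the rest of the sum was not tested. In villi Cd68 and Lyzs were lower than in crypts, and Csf1r and Itgax were higher, as given above. The part of myeloid RNA in the lower levels of the members in organoids was not tested. Against villi, 8 of the 9 members were lower in organoids, where 25.8% of genes were called lower, and B2m was at -0.60 (adjusted p = 0.416). Villi exceeded organoids 38.9-fold in Psmb8, 36.6-fold in Tap2, 16.9-fold in Tap1 and in H2-D1, 16.8-fold in Tapbp, 10.6-fold in H2-K1, 5.91-fold in Psmb10, 3.75-fold in Psmb9 and 1.48-fold in B2m, as ratios of mean RPKM. These 3 contrasts share libraries and are not independent of each other.

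**Figure D2:**
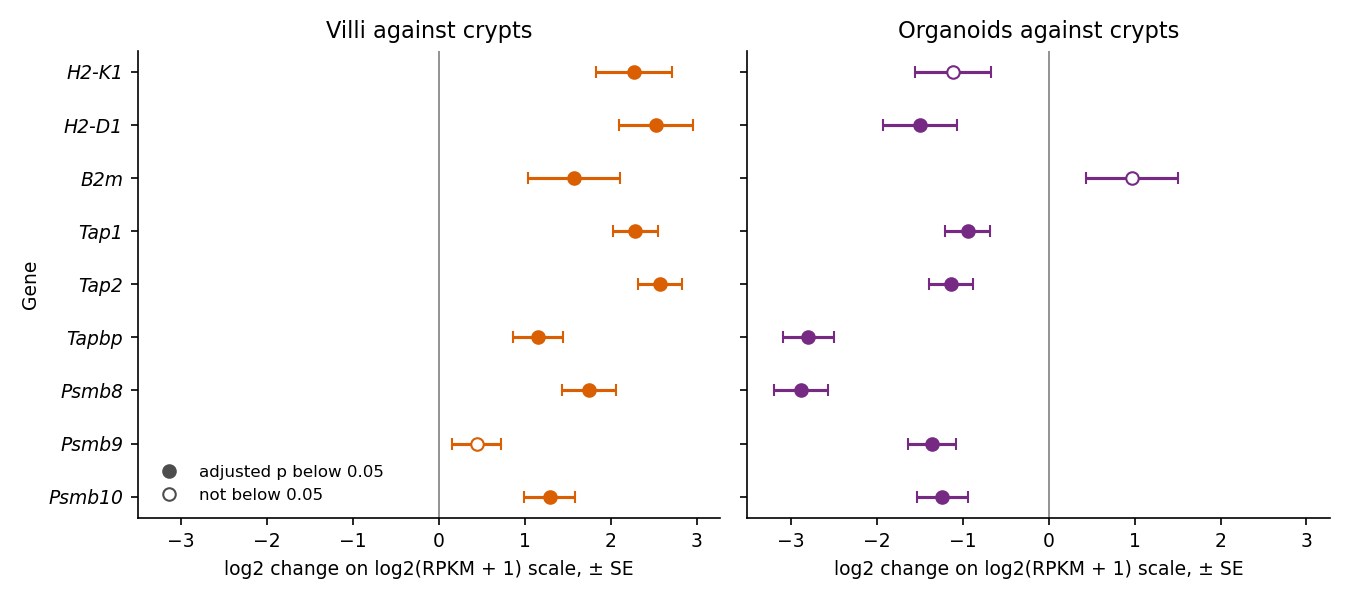
Change of each member in villi (left) and organoids (right) against crypts on the log2(RPKM + 1) scale, with the standard error from limma as bars, filled where the adjusted p was below 0.05. In villi the changes run from 0.44 for Psmb9 to 2.57 for Tap2, and in organoids from -2.89 for Psmb8 to 0.97 for B2m.

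Inducible and standard subunits were compared as ratios of RPKM, levels per length within a library. These are ratios of RNA and do not measure which subunits are built into proteasomes. Psmb8 per Psmb5 was 0.253 to 0.856 in crypts, 0.750 to 2.78 in villi and 0.0193 to 0.0345 in organoids. For Psmb9 per Psmb6 the ranges were 0.0948 to 0.178, 0.129 to 0.422 and 0.0248 to 0.0338. Psmb10 per Psmb7 was 1.49 to 5.08 in crypts, 5.61 to 15.6 in villi and 0.452 to 0.533 in organoids. Organoids lay below every crypt library in all 3 ratios, with differences of -4.38, -2.17 and -2.48 on the log2 scale, which is 20.8-, 4.49- and 5.57-fold. Each of these had the smallest two-sided p an exact permutation test of 3 against 6 libraries can give, 0.0238, and adjusted over the 9 ratio tests it was 0.0536, above the threshold. Villi lay above every crypt library in Psmb10 per Psmb7 only, by 1.90 on the log2 scale (exact permutation p = 0.0238, adjusted 0.0536), and the 0.86 and 1.51 of the other ratios had adjusted exact p-values of 0.119 and 0.112. Villi against organoids, 3 against 3, cannot go below 0.1. Among the standard subunits, Psmb5 rose by 0.97 (adjusted p = 0.0243) and Psmb7 by 1.22 (adjusted p = 0.0192) in organoids, and Psmb6 was at 0.74 (adjusted p = 0.0959, and 0.0309 with the replicate block). In the Psmb5 transcript 57.1% of 50-base windows recur elsewhere, mostly in the predicted gene Gm3375, and in Psmb7 28.1%, mostly in Nek6, so these levels are less certain than those of the inducible subunits.

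Heavy chain per light chain was computed after the values had been seen and is given as a description. H2-K1 per B2m was 0.361 to 0.567 in crypts, 0.689 to 0.773 in villi and 0.0917 to 0.140 in organoids. The ranges for H2-D1 per B2m were 0.140 to 0.234, 0.295 to 0.394 and 0.0229 to 0.0407. Neither ratio overlapped between tissues. Organoids thus had the least heavy chain RNA per B2m RNA and villi the most.

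**Figure D3:**
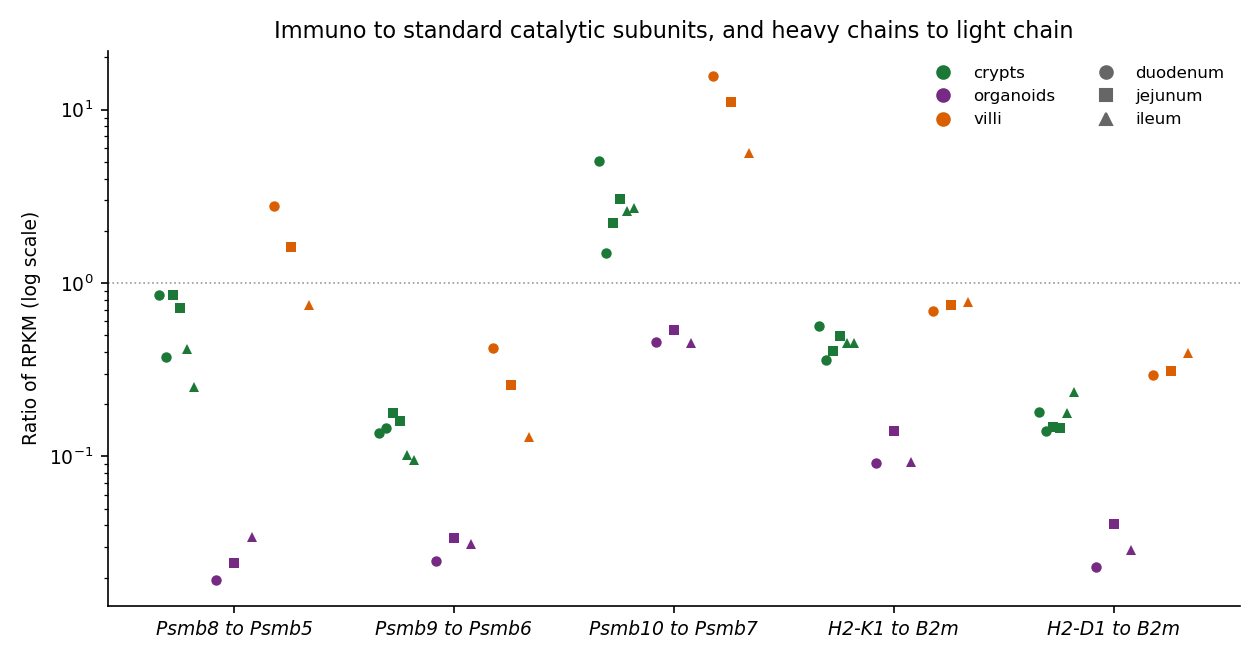
Ratios of RPKM within each library on a log axis, for the 3 pairs of inducible and standard catalytic subunits and for each heavy chain per B2m, coloured by tissue and shaped by origin, with a dotted line at 1. Organoids are lowest in every column, and Psmb8 exceeds Psmb5 only in duodenal and jejunal villi.

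Other class I heavy chains moved with the classical ones in villi, and in organoids some were called higher and some lower. Of the 30 listed, 23 were matched and 15 tested. In villi 12 were higher and none lower, beside 20.5% and 32.8% of all genes, with a median change of 1.52. H2-Q2 had 523, 423 and 282 RPKM in duodenal, jejunal and ileal villi against 4.27 to 34.9 in crypts and 2.77 to 6.12 in organoids, a rise of 5.18 ± 0.47 in villi (adjusted p = 5.31e-06). H2-T23, which encodes Qa-1, had 164 to 222 RPKM in villi, 5.48 to 34.9 in crypts and 22.1 to 41.2 in organoids, and rose by 3.54 ± 0.43 in villi (adjusted p = 3.43e-05). It was at 0.84 in organoids (adjusted p = 0.128, and 0.0068 with the replicate block). H2-T3, which encodes the thymus leukemia antigen of intestinal epithelium, had 144 to 179 RPKM in villi, 34.6 to 102 in crypts and 5.55 to 8.54 in organoids, where it fell by 3.03 (adjusted p = 1.71e-05). H2-Q7 rose by 1.62 in villi (adjusted p = 1.48e-05) from at most 0.706 RPKM in crypts. In organoids 3 heavy chains were higher and 5 lower, beside 23.4% and 24.2% of all genes, with a median of -0.0003. With the replicate block 6 were higher and 7 lower, beside 27.9% and 28.2% of all genes. H2-T9 and H2-T22 are 2 of the 3 higher without the block. They are deposited at the same mm9 start, chr17:36175353, and end 10 bases apart. They thus count 1 locus under 2 names, also among the 12 higher in villi. These genes are near-identical copies in part: 40.2% of the 50-base windows of H2-Q7, 29.8% of H2-T23 and 8.74% of H2-Q2 recur in another gene, and the authors' treatment of reads with several places was not analysed here.

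Counts of the related lists stand beside the shares of all genes given above, 20.5% higher and 32.8% lower in villi and 23.4% higher and 24.2% lower in organoids. With the replicate block these shares were 23.9% and 36.1% in villi and 27.9% and 28.2% in organoids. Among 14 genes of peptide loading and trimming, 2 were higher and 6 lower in villi, and 1 higher and 5 lower in organoids (2 and 6 with the replicate block). Tapbpl, a tapasin relative that edits peptides, had a rise of 1.73 in villi (adjusted p = 0.000223) and a fall of 1.23 in organoids (adjusted p = 0.00276). Npepps, a cytosolic aminopeptidase, fell by 2.10 in organoids (adjusted p = 3.65e-05), and Nrd1, a peptidase of the cytosol, fell by 1.77 in villi (adjusted p = 3.46e-05). The glucosidase subunit Ganab fell by 1.53 in organoids (adjusted p = 0.000702).

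Of the 14 genes of the standard 20S core, 9 were higher and none lower in organoids, with a median change of 1.17, where 23.4% of all genes were higher. With the replicate block 11 were higher, against 27.9% of all genes. Psmb1 had 796, 451 and 773 RPKM in duodenal, jejunal and ileal organoids against 108 to 240 in crypts, a rise of 2.18 ± 0.32 (adjusted p = 0.000187). Psma5 rose by 1.397 (adjusted p = 0.00192) and Psma2 by 1.45 (adjusted p = 0.00497). In villi none of the 14 was higher and 2 were lower, with a median of -0.58, and 5 were lower with the replicate block and 1 after TMM scaling. Psmb3 fell there by 1.13 (adjusted p = 0.00461). Of the 18 genes of the 19S cap, which unfolds substrates, 6 were lower and none higher in villi, where 32.8% of all genes were lower, and 3 were higher and 6 lower in organoids. Psmd1 fell by 1.70 in villi (adjusted p = 8.18e-05), Psmd3 fell by 1.92 and Psmd2 fell by 1.26 in organoids (adjusted p = 0.000165 and 0.00155), and Psmc6 rose by 1.70 there (adjusted p = 0.0013). Among 4 tested partners of the immunoproteasome, Psme3, the nuclear activator, fell by 1.28 in organoids (adjusted p = 0.00266) and was the only one called there. Of the interferon-induced activator pair, Psme1 was at -0.57 in villi (adjusted p = 0.105, and 0.0407 with the replicate block) and Psme2 at 0.80 (adjusted p = 0.0866, and 0.0209 with it), while Pomp, the assembly factor, was at 0.64 in organoids (adjusted p = 0.155, and 0.0281 with it).

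Regulators of class I genes were tested from a list of 17, of which 16 could be tested. In villi 3 were higher and 5 lower, near the shares of all genes (20.5% and 32.8%). In organoids 2 were higher and 7 lower (9 with the replicate block), beside 23.4% and 24.2% of all genes. Irf1, an interferon-induced activator of class I promoters, had 99.2, 77.3 and 76.9 RPKM in duodenal, jejunal and ileal villi, 31.0 to 49.0 in crypts and 6.19, 9.39 and 12.0 in organoids, without overlap. It rose by 1.08 in villi (adjusted p = 0.00374) and fell by 2.02 in organoids (adjusted p = 7.73e-05). In organoids Irf8 fell by 2.40 (adjusted p = 1.46e-05), Stat2, a factor of the type I interferon response, fell by 1.45 (adjusted p = 0.000136) and Rela, a subunit of NF-kB, fell by 1.14 (adjusted p = 0.00102). Nlrc5, deposited as AI451557, was below the filter: it had 0.287 to 0.754 RPKM in villi and at most 0.26 in crypts and 0.0421 in organoids.

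Upstream of these, 6 of 9 interferon receptor and kinase genes were higher in villi and none lower. Ifngr2, a chain of the interferon gamma receptor, rose by 1.80 there (adjusted p = 0.00123), and Il28ra, a chain of the interferon lambda receptor, by 1.37 (adjusted p = 0.00295). In organoids 1 was higher and 1 lower (3 and 2 with the replicate block): Ifnar2, a chain of the type I receptor, rose by 1.73 (adjusted p = 0.000992), and the kinase gene Tyk2 fell by 0.95 (adjusted p = 0.00353). Of 22 tested interferon response genes, 16 were higher and 1 lower in villi, with a median of 1.19. Isg15 had 125, 43.2 and 35.3 RPKM in duodenal, jejunal and ileal villi against 1.75 to 8.15 in crypts, a rise of 3.60 (adjusted p = 2.58e-05). Ido1, deposited as Indo, rose by 3.21 (adjusted p = 5.31e-06), Ifit1 by 3.13 (adjusted p = 1.02e-05) and Oasl2 by 2.53 (adjusted p = 4.06e-05). In organoids 1 of the 22 was higher and 4 were lower (2 and 4 with the replicate block), with a median of -0.05. The interferon genes themselves, Ifng, Ifnb1, Ifna1, Ifna2, Ifna4, Il28a and Il28b, were listed at 0 in every crypt and villus library, and Ifna1 had 0.127 RPKM in the ileal organoids. MHC class II genes were called in the same directions as class I, with 6 of 7 higher in villi and 4 lower in organoids. Their summed level overlapped between villi (287 to 425 RPKM) and crypts (12.4 to 430), and was 5.98 to 7.88 in organoids. H2-Ab1 had 195, 100 and 117 RPKM in villi, 3.62 to 65.3 in crypts and at most 0.0459 in organoids.

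**Figure D4:**
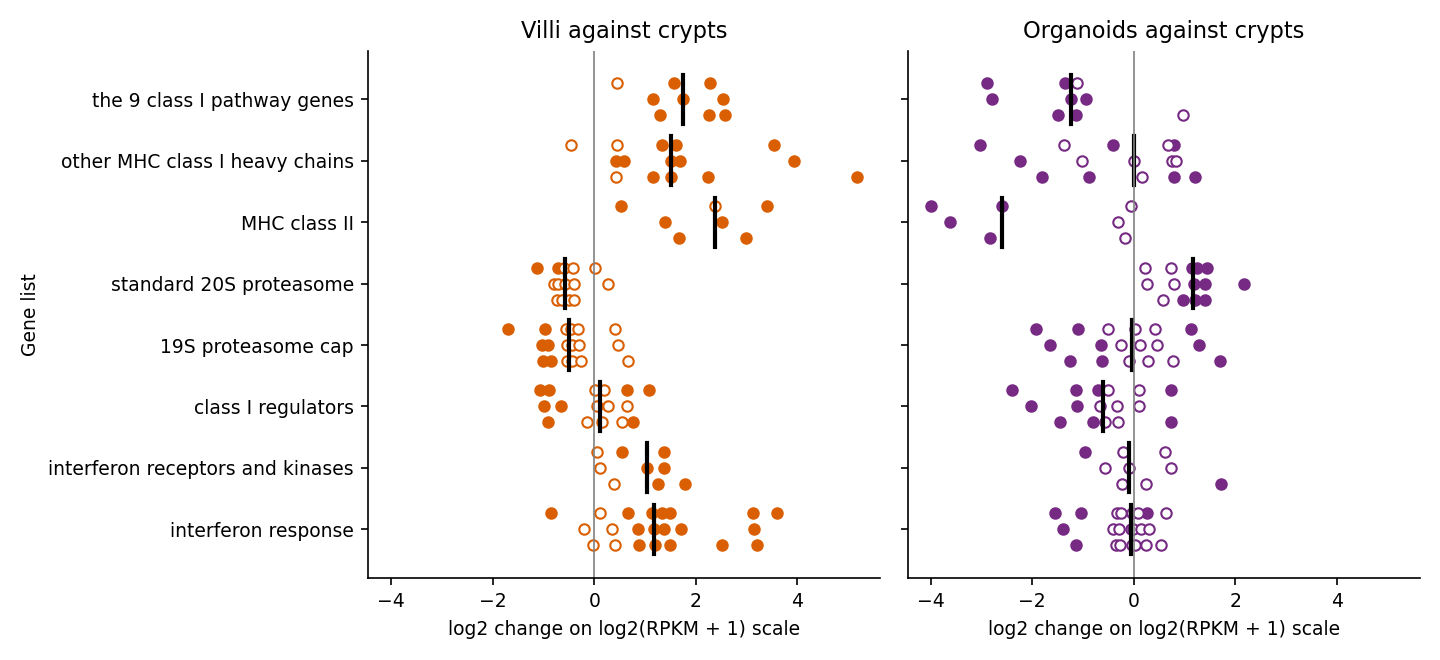
Change of each tested gene of 8 lists in villi (left) and organoids (right) against crypts on the log2(RPKM + 1) scale, filled where the adjusted p was below 0.05, with a black line at the median of the list. Standard 20S genes have a median of -0.58 in villi and 1.17 in organoids, and the 9 class I pathway genes 1.75 and -1.24.

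The crypt replicates differed in some members more than in others. H2-K1 was 2.19, 2.63 and 2.45 times higher in replicate 2 than in replicate 1 at duodenum, jejunum and ileum. The ratios were 2.67, 2.12 and 3.23 for H2-D1 and 3.45, 2.14 and 2.45 for B2m. The chains of the class I molecule were thus higher in replicate 2 at every origin, as were H2-T23 (2.15 to 4.07) and the enterocyte gene Fabp1. Among the other members only Psmb10 was above 1 at every origin, by less, with ratios between 1.03 and 1.499. Psmb8 had ratios of 1.20, 0.745 and 1.08, Tap1 2.09, 0.563 and 1.09, and Tap2 0.773, 0.960 and 1.99, with Tapbp between 0.991 and 1.90 and Psmb9 between 0.995 and 1.81. Scaling moved the duodenal pair most: after TMM scaling, a setting chosen after seeing the data, the duodenal ratios were 1.46 for H2-K1, 1.78 for H2-D1 and 2.29 for B2m, and the 3 chains stayed above 1 at every origin, between 1.46 and 2.88. Psmb10 was then at 0.751 in the duodenum and Psmb8 below 1 at every origin (0.736 to 0.964). Replicate 1 also had the lower share of reads in genes, as given above. Class II ran the other way, with H2-Ab1 at 10.04, 65.3 and 23.2 RPKM in replicate 1 and 3.62, 8.30 and 4.15 in replicate 2, and H2-Eb1 at 8.87, 42.3 and 13.9 against 1.40, 4.14 and 2.74. Summed lymphocyte markers were low in both but also higher in replicate 2, at 2.58, 4.76 and 2.05 RPKM against 1.06, 1.28 and 1.13. The part of enterocyte or lymphocyte RNA in the replicate difference of the class I chains was not tested.

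**Figure D5:**
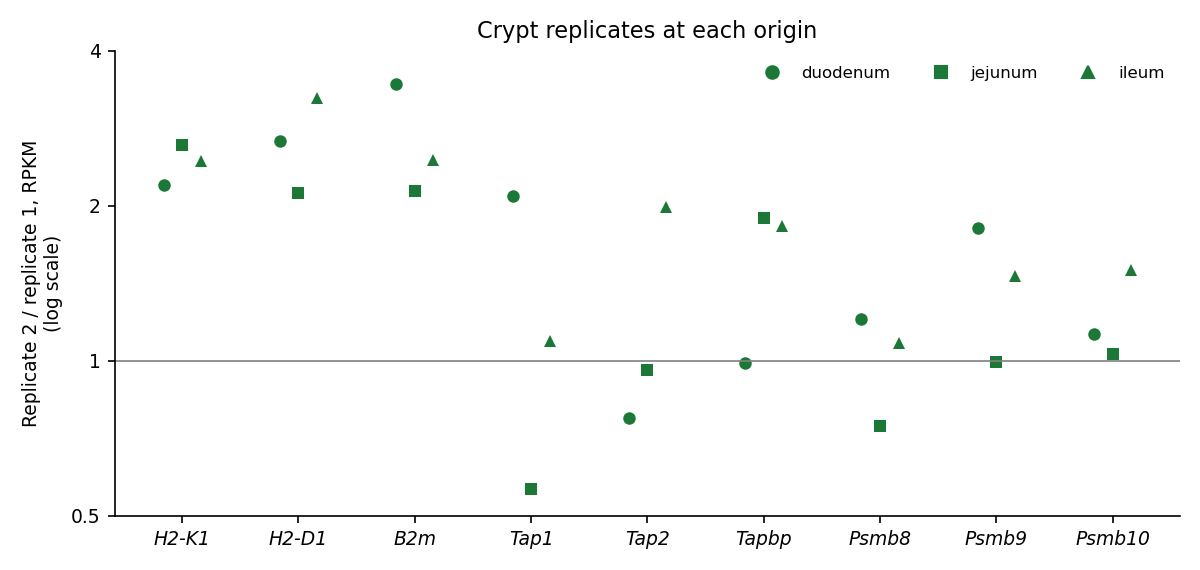
Ratio of crypt replicate 2 to crypt replicate 1 in RPKM on a log axis for each member, 1 point per origin, with a line at 1. H2-K1, H2-D1 and B2m lie at 2.12 to 3.45, and the other members between 0.563 and 2.09.

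Along the gut no member passed the test. None of the 9 was called in the 8 comparisons of origins: ileum, jejunum and duodenum against each other over all tissues, the same within crypts, and the difference of the ileum-duodenum change between organoids or villi and crypts. Few genes were called at all. Over all tissues 0.676% of genes were called between ileum and duodenum, 0.0428% between ileum and jejunum and 0.0% between jejunum and duodenum. Within crypts the shares were 0.0354%, 0.0266% and 0.0%, and for the 2 differences 0.0% each. At an unadjusted p below 0.05, 2 of the 9 members and 981 of the 11690 genes passed between ileum and duodenum over all tissues by limma. By limma-voom on recovered reads 2 members and 998 of the 11690 genes passed there, and no member passed in the other comparisons of origins with either. With the replicate block 1 member and 1046 of 11297 genes passed at that level between ileal and duodenal crypts. Between ileal and jejunal crypts 1 member and 502 of 11297 genes did. Over all tissues the limma values were -0.71 ± 0.31 for Psmb8 (adjusted p = 0.541) and -0.72 ± 0.28 for Psmb9 (adjusted p = 0.424), both on the side of a lower level in ileum.

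The villus libraries, 1 per origin and so untested, ran from duodenum to ileum in Psmb8 (141, 77.0 and 42.5 RPKM), Psmb9 (73.1, 52.5 and 33.1), Psmb10 (624, 594 and 372) and Tap2 (26.5, 19.2 and 13.1), each highest in duodenum and lowest in ileum. The other 5 members had no such order: H2-K1, H2-D1, B2m and Tapbp were lowest in jejunum and Tap1 was highest there. The share of all genes that fall from duodenum to ileum in this way was not computed, so the count of members is a description. Crypts had their lowest Psmb8 means in ileum too, 15.7 ± 0.87 RPKM (SD, n = 2) against 27.5 ± 3.6 in duodenum and 26.2 ± 5.4 in jejunum. Organoids had their highest Psmb8 value, 3.15, in ileum. The ileum-duodenum difference of Psmb8 was 1.18 ± 0.57 higher in organoids than in crypts (adjusted p = 1) and -0.94 ± 0.57 in villi relative to crypts (adjusted p = 1). The summed lymphocyte markers had the order of the first 4, with 290, 145 and 66.8 RPKM in duodenal, jejunal and ileal villi, and Cd3e had 17.5, 11.4 and 6.09. Ptprc did not, with 1.09, 0.813 and 0.889. Their part in the villus order was not tested.

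Over the 12 libraries, the 5 genes most like the mean of the standardized members, by Pearson's r among 11681 other genes, were Oasl2 (0.987), M6prbp1 (0.980), B3gnt3 (0.978), H2-Bl (0.975) and Mtmr4 (0.974). Each is high in villi and low in organoids: Oasl2 had 26.7 to 37.0 RPKM in villi, 2.32 to 8.24 in crypts and 0.583 to 1.62 in organoids, and H2-Bl, a class I-like gene, 22.7 to 40.0, 2.36 to 14.1 and 0.792 to 0.910. The members' own r with that mean ran from 0.859 for Psmb9 to 0.975 for Psmb10, and was 0.482 for B2m. All these values rest on the same 12 libraries and on 3 tissues, so they are a description.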

How the data were processed

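The deposited values are RPKM for each transcript in each library, as named in the file headers. Reads of 50 bp from a SOLiD 4 were aligned with BWA to mm9 per the submitters' processing notes and the labels' protocols; gene models, counting rule and strand use were not given in the sources used here. Steps of the RPKM values gave whole reads for at least 99.967% of values per library (within 0.02 of a read), and from these reads the depth was derived.

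The longest transcript per symbol was kept. Tested genes reached what 10 reads are worth at median depth in 3 or more libraries (2 for crypt comparisons, 1 for differences between tissues) and 15 reads in total. They were tested with limma 3.58.1 (trend) in R 4.3.3 on log2(RPKM + 1), two-sided, with Benjamini-Hochberg adjustment over all genes tested and 0.05 as threshold. Tissues and origins were compared in an additive model of 12 libraries (7 residual degrees of freedom, 11690 genes), crypt origins in 6 libraries (3 degrees, 11297 genes) and differences between tissues in a model of 9 means (3 degrees, 12596 genes), in which single libraries are assumed to vary like crypts. Log2 ratios of subunits were compared by exact permutation tests over libraries (scipy 1.17.1). Equal crypt replicate numbers deviated together (correlations of 0.42, 0.51 and 0.79 between origins over 11297 genes), so a fit with the number as a replicate block was run as an alternative; villi and organoids have no number and are paired with nothing. The scripts were tested on simulated data.

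Members and the 19 gene lists (210 of 220 entries matched by symbol or RefSeq accession) were chosen with earlier results of these data known. All members are named, and from each other list up to 4 tested genes with the smallest p in villi or organoids against crypts. Psmb5, Psmb6, Psmb7, Nlrc5 and Irf1 were added. Of the defining markers Ptprc, Cd3e, Csf1r, Fabp1 and Lgr5 are named. Itgam, H2-T9, H2-T22 and the other genes in the closing observations were chosen after their values were seen. Deposited coordinates are printed as they stand, without knowledge of whether starts count from 0 or 1. Promoter sequences are from RefSeq (GRCm38.p6). A gene that the rule also names is not reported here.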

Additional observations from a re-analysis of the deposited data

How the results depend on the processing

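The 27 member changes between tissues were refitted under 23 alternatives each: pseudocounts of 0.1 and 5, no filter, TMM scaling, quantile normalisation, the transcript with the highest mean, limma-voom on recovered reads, the replicate block, each library left out, only 1 crypt replicate number and, chosen after seeing the data, TMM scaling with the replicate block. Of these 621 fits 598 kept their call, 9 lost one, 14 gained one and none changed direction. The changes lie in 7 results: B2m in all 3 contrasts (against villi it was called lower in organoids only after quantile normalisation, -1.48), H2-K1, H2-D1 and Tap1 in organoids and Psmb9 in villi. H2-K1 in organoids passed in 8 of its alternatives, TMM (adjusted p = 0.0367), quantile normalisation (0.000607), limma-voom (0.0388) and leaving out replicate 1 of duodenal or ileal crypts (0.0216 and 0.0309) among them, and its size ran from -1.75 to -0.48. The replicate block takes out spread between crypt replicates and pairs no villus or organoid library. It gave 8 members called in villi and 9 in organoids, beside 7019 and 6554 of the 11690 genes. It changed no member's call other than those of H2-K1 and B2m in organoids. Leaving out 1 library left 7 or 8 members called in villi and 5 to 8 in organoids, with no share of all genes given beside them. For the subunit ratios the exact test cannot go below 0.0238 or 0.1 and rescaling a library cannot move a ratio within it, so their alternatives say nothing of stability. No member was called between origins. After TMM scaling 6 class I regulators were higher in villi, against 3 as deposited, and 5 other heavy chains were higher in organoids, against 3. The share of all genes called higher also rose under TMM scaling, both in villi and in organoids. Whether these lists gained more than all genes did was not tested. Depth limits Tap2 in organoids most, at 6 to 27 reads per library.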

Other observations

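Further class I and interferon genes are given as values, chosen after seeing them. H2-M3, which presents formylated peptides, had 6.93, 1.74 and 4.38 RPKM in duodenal, jejunal and ileal organoids, 0.784 to 2.16 in crypts and 1.66 to 2.19 in villi, a rise of 1.20 ± 0.26 in organoids by limma (adjusted p = 0.0022). H2-T9 and H2-T22, deposited at 1 locus, also rose there, by 0.79 and 0.80 (adjusted p = 0.0237 and 0.0223), and H2-T9 stood at 12.6 to 17.0 RPKM in organoids, above every crypt library (4.98 to 11.01). Irgm, an interferon-induced GTPase gene, had 3.498, 5.75 and 9.52 RPKM in villi against 7.07 to 16.6 in crypts and was the only tested interferon response gene called lower there (-0.85 ± 0.29, adjusted p = 0.0235). Fcgrt, the neonatal Fc receptor heavy chain, which also pairs with B2m, fell by 2.25 in organoids (adjusted p = 0.000203), from 22.6 to 68.0 RPKM in crypts to 6.61 to 9.64.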
